A study of Mus musculus with 8 samples.

Results

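The genes described here are 7 keratins of simple and mucosal epithelia, Krt4, Krt7, Krt8, Krt13, Krt18, Krt19 and Krt23. They were chosen by gene symbol, by a rule that does not use their values, but with earlier results of these data known. The 7 come from the 23420 named genes in the comparison of mouse cornea and limbus. Reads were found for all 7 in both tissues. Both groups were wild type C57BL/6J mice aged 8 weeks and no treatment is listed. The cornea group was the corneal button, the cornea inside the limbus, and the limbus group was the limbal rim, the ring of tissue between cornea and conjunctiva, both dissected from 16 eyeballs and pooled by tissue before total RNA was sequenced. The labels number 4 samples for each tissue, but the deposited values rest on 1 cornea library of 26104317 reads on named genes and 1 limbus library of 21182025. No difference therefore has a replicate check, no p-value is given, and a 95% confidence interval (CI) covers counting error only. Reads copied by PCR and not tagged with molecular identifiers may share a molecule, so an interval may be too narrow even for that.

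Keratins are the intermediate filament proteins of epithelial cells. A filament is built from pairs of an acidic type I and a basic or neutral type II keratin, so genes of both types are usually expressed together, and which pair a cell uses is a mark of the kind of epithelium it belongs to. Krt8 and Krt18 are the pair of simple, single-layered epithelia, and Krt7 and Krt19 join them in ducts and other glandular or transitional linings. Krt4 and Krt13 are the pair of the upper layers of wet stratified linings such as mouth, oesophagus and conjunctiva. Corneal epithelium is known for Krt12, which is paired with Krt5, and the basal cells of the limbus for Krt15 and Krt14.

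All 7 keratins were higher in the limbus than in the cornea beyond counting error, by 35.7-fold for Krt4, 31.0-fold for Krt8, 23.2-fold for Krt19, 11.04-fold for Krt7, 6.03-fold for Krt18, 3.63-fold for Krt13 and 1.72-fold for Krt23. None was higher in the cornea. Beyond counting error means that the 95% exact Clopper-Pearson CI of the log2 ratio of normalized reads, limbus over cornea, did not include 0. By this rule 33.2% of the 13862 genes that had over 3 reads in each library were higher in the limbus, and 40.6% were lower there, that is, higher in the cornea. With the libraries scaled to their total reads on named genes instead, every log2 ratio shifts by 0.21 towards the limbus. The shares are then 45.1% and 29.7%. All 7 keratins remain on the limbal side, as a shift in that direction requires. The median log2 ratio of the 7 keratins was 3.47, and that of all these genes was -0.05. Pooled tissue does not tell apart fewer cells with a transcript from less of it in each cell.

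The sequence around the start of transcription was on hand for 5 of the 7 genes and is shown because these genes all had more reads in the limbus. Krt4 and Krt19 are named only. Each line gives 60 bases before and 10 bases from the start annotated by RefSeq on GRCm38.p6, in the direction of the gene. Capitals mark the TATA box letters TATAA or ATAAA, which overlap where the letters read TATAAA.
Krt23, chr11:99493111-99493180, minus strand: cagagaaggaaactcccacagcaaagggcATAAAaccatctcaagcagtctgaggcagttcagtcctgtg
Krt13, chr11:100121557-100121626, minus strand: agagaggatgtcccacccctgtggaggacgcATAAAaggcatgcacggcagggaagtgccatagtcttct
Krt7, chr15:101412343-101412412, plus strand: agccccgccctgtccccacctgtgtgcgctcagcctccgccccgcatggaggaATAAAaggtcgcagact
Krt8, chr15:102004333-102004402, minus strand: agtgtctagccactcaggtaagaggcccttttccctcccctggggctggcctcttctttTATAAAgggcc
Krt18, chr15:102028156-102028225, plus strand: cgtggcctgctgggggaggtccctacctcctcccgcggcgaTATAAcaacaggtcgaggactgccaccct

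Counted from 1 at the annotated start, with -1 for the base before it, the first marked letter lay at -31 in Krt23, -29 in Krt13, -19 in Krt18, -7 in Krt7 and -1 in Krt8. In Krt8 and Krt7 the letters thus lay on or close to the RefSeq start. Gene spans given below are from another annotation, GENCODE. Its outer start equals the RefSeq start for Krt13 and differs for Krt7, Krt8, Krt18 and Krt23. For the latter genes the positions of the letters hold for the RefSeq starts only. These letters were chosen after the sequences had been seen, and either of them occurs on 1 strand or the other in 5268 of 32851 windows of the same length around annotated starts, and on the strand of the gene in 3568 (10.9%). A match is a description of the letters.

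Krt4, the type II keratin of mucosal linings, had 2138 corneal and 71498 limbal reads. After division by the size factor of each library these were 2068 and 73911 normalized reads, a log2 ratio of 5.16 (95% CI 5.10 to 5.22). Only 59 of the 13862 genes had a higher ratio. Krt4 spans bases 101918535 to 101924735 on the minus strand of chromosome 15.

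Krt13, the type I partner of Krt4, had the highest level of the 7 keratins in both tissues, by reads and also per kilobase. It had 35544 corneal and 120736 limbal reads, or 34384 and 124810 normalized reads, a log2 ratio of 1.86 (95% CI 1.84 to 1.88). With 1227 genes above it, its ratio was far less extreme than that of Krt4, and it was well represented in the cornea. Krt13 spans bases 100117327 to 100121566 on the minus strand of chromosome 11.

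Krt8, the type II keratin of simple epithelia, had 39 corneal and 1131 limbal reads, or 37.7 and 1169 normalized reads. Its log2 ratio of 4.95 had the widest interval of the 7 (95% CI 4.49 to 5.45), because it rested on the fewest corneal reads. It lies on chromosome 15 from 101996698 to 102004482 on the minus strand, and the long noncoding RNA gene Gm36026 overlaps it on the opposite strand. Of the 1884 stretches of 75 bases, the read length, in its annotated transcripts, 442 (23.5%) also occur in transcripts of other genes, 414 of them in the pseudogene Krt8-ps. How such reads were assigned is not given in the sources used here, and the values of Krt8 carry that limit.

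Krt18, the type I partner of Krt8, had 45 corneal and 254 limbal reads, or 43.5 and 263 normalized reads, a log2 ratio of 2.59 (95% CI 2.13 to 3.08). Although it encodes a type I keratin, Krt18 lies on chromosome 15 from 102028180 to 102032027 on the plus strand, at the end of the type II genes.

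Krt19, a type I keratin that lacks most of the usual tail domain, had 1417 corneal and 30740 limbal reads, or 1371 and 31777 normalized reads, a log2 ratio of 4.53 (95% CI 4.46 to 4.61). Of all genes, 96 had a higher ratio. It spans bases 100140810 to 100148665 on the minus strand of chromosome 11.

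Krt7, a type II keratin of ducts and transitional linings, started from a like number of 1489 reads in the cornea and reached 15389 in the limbus. These were 1440 and 15908 normalized reads, a log2 ratio of 3.47 (95% CI 3.39 to 3.54), and 297 genes had a higher ratio. Krt7 lies on the plus strand of chromosome 15 from 101411043 to 101430313, and the antisense gene Gm671 overlaps it. Whether reads were counted by strand is not given in the sources used here.

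Krt23, a type I keratin of glandular and intestinal epithelia, differed least. It had 735 corneal and 1186 limbal reads, or 711 and 1226 normalized reads, a log2 ratio of 0.79 (95% CI 0.65 to 0.92), and 2520 genes had a higher ratio. It spans bases 99477974 to 99493137 on the minus strand of chromosome 11.

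**Figure D1:**
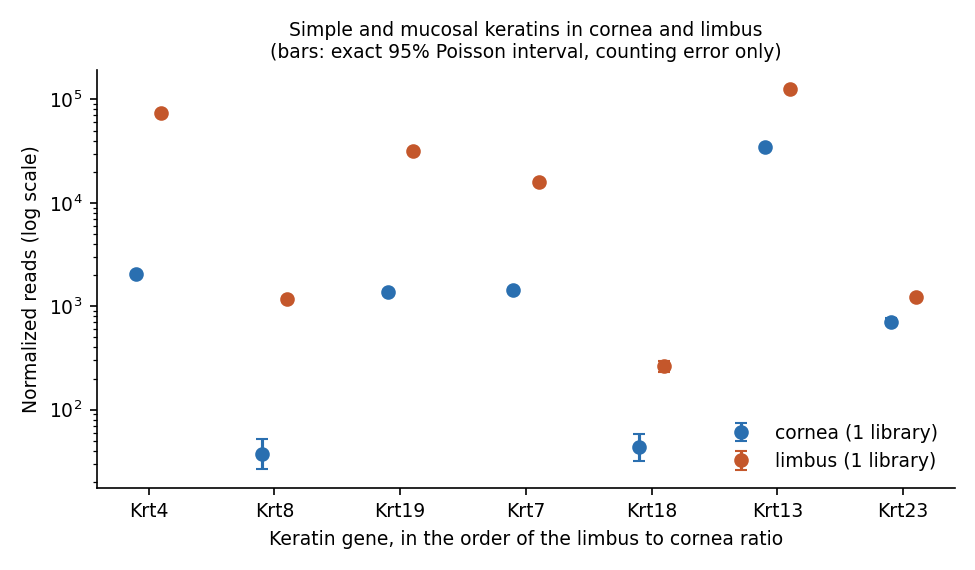
Normalized reads of each keratin on a log axis, in the cornea library and the limbus library, ordered by the limbus to cornea ratio, with exact 95% Poisson intervals as bars. The limbus point lies above the cornea point for all 7 genes, the gap is widest for Krt4 (2068 and 73911) and narrowest for Krt23 (711 and 1226), and Krt8 and Krt18 are the sparsest genes in the cornea.

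In the order of the ratios, neighbours were compared by the exact conditional CI of the difference between their log2 ratios. The step from Krt4 to Krt8 was 0.21 (95% CI -0.30 to 0.67) and that from Krt8 to Krt19 was 0.42 (95% CI -0.05 to 0.92), so the order of Krt8 among these was not detectable at this depth. The step from Krt19 to Krt7 was 1.07 (95% CI 0.96 to 1.18). Further down, Krt7 lay 0.87 above Krt18 (95% CI 0.38 to 1.34), Krt18 lay 0.73 above Krt13 (95% CI 0.27 to 1.22) and Krt13 lay 1.07 above Krt23 (95% CI 0.94 to 1.21). These steps do not depend on how the libraries are scaled to each other. The 3 type II members had log2 ratios between 3.47 and 5.16, and the 4 type I members between 0.79 and 4.53.

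The sizes of these differences were set beside those of all genes. At least 2-fold higher in the limbus were 6 of the 7 keratins and 15.5% of the 13862 genes, and at least 4-fold higher were 5 of 7 and 8.12%. At least 8-fold higher were 4 of 7 and 3.57%, and at least 16-fold higher were 3 of 7 and 1.22%. Genes with few reads have noisy ratios, so the shares were also taken over the 10098 genes with at least 299 reads in both libraries together, the number of Krt18, the shallowest of the 7. Of these, 30.2% were higher in the limbus by more than counting error, and 49.3% were higher in the cornea, as none of the 7 keratins was. Higher in the limbus were 7.41% at least 2-fold, 3.5% at least 4-fold, 1.73% at least 8-fold and 0.832% at least 16-fold.

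**Figure D2:**
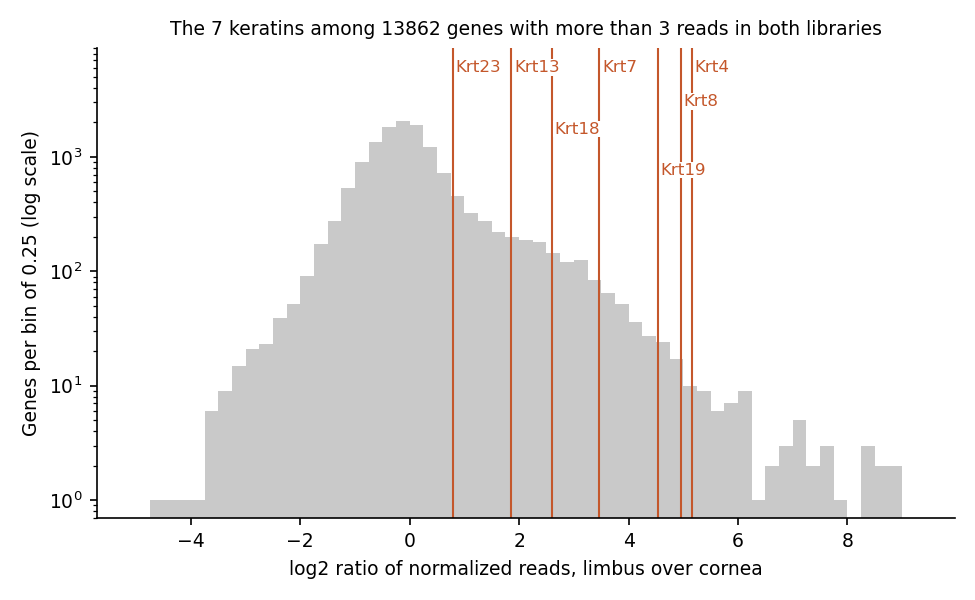
Number of genes per bin of 0.25 (log axis) by the log2 ratio of normalized reads, limbus over cornea, for the 13862 genes that had over 3 reads in each library, with vertical lines at the 7 keratins. All lines lie to the right of 0, from 0.79 for Krt23 to 5.16 for Krt4, and those of Krt4, Krt8 and Krt19 stand in the thin right tail.

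Levels were compared between genes per length, as RPKM. That is, reads were scaled by the library's total on named genes and by the length in kilobases of the longest annotated protein-coding transcript. On this scale the level of Krt13 was 823 in the cornea, 21.4 times (95% CI 20.5 to 22.4) that of Krt4 at 38.4. Krt19 followed at 34.4, Krt23 at 18.0 and Krt7 at 13.9. Krt18 at 1.20 and Krt8 at 0.763 came last, and the ratio of these last neighbours was 1.57 (95% CI 1.001 to 2.48), at the edge of counting error. The highest level was 1079 times the lowest.

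In the limbus the level per kilobase of Krt13 was 3446, and Krt4 at 1582 was much closer to it, the ratio being 2.18 (95% CI 2.16 to 2.20). Krt19 had a level of 921 and Krt7 of 177. Krt23 at 35.8 now stood below Krt7, by 4.96 times (95% CI 4.68 to 5.27), whereas in the cornea it stood above Krt7 by 1.29 times (95% CI 1.18 to 1.41). Krt8 at 27.3 now stood above Krt18 at 8.34, by 3.27 times (95% CI 2.85 to 3.76). These 2 changes of place are the difference in the order of levels between the tissues, and the span from highest to lowest was 413-fold. The longest annotated transcript of Krt7 has 4094 bases and those of the other 6 between 1437 and 2133, so that the place of Krt7 depends on which transcript is taken.

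Among the 43 keratin genes with reads and an annotated length, ordered by this level, Krt13 was number 6 in the cornea and number 4 in the limbus. Krt4 was number 10 and 7, Krt19 was 11 and 9, and Krt7 was 13 and 11. Krt23 went the other way, from number 12 to number 16, although its own ratio was above 1.

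The partner genes were then compared inside each library, where scaling plays no part. Per kilobase, the ratio of Krt8 to Krt18 was 0.636 in the cornea against 3.27 in the limbus, a change of 5.14-fold (95% CI 3.19 to 8.28, exact conditional). The ratio of Krt4 to Krt13 per kilobase was 0.0466 in the cornea against 0.459 in the limbus, a change of 9.85-fold (95% CI 9.41 to 10.3). In both pairs, the type II gene was thus more abundant relative to its type I partner in the limbus.

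Krt7 and Krt19 went the other way. Their ratio per kilobase was 0.405 in the cornea against 0.193 in the limbus, a change of 0.476-fold (95% CI 0.442 to 0.514). By reads, not corrected for length, the ratio was 1.05 and 0.501. Which of the 2 genes is higher in the cornea thus depends on the Krt7 transcript taken, and the change does not. Over all 7 genes, the level per kilobase of the 3 type II members was 0.0605 of that of the 4 type I members in the cornea against 0.405 in the limbus. Over all keratin genes the same ratio was 0.554 and 0.700, so that in either tissue the type I members outweighed the type II members more than in the family as a whole.

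**Figure D3:**
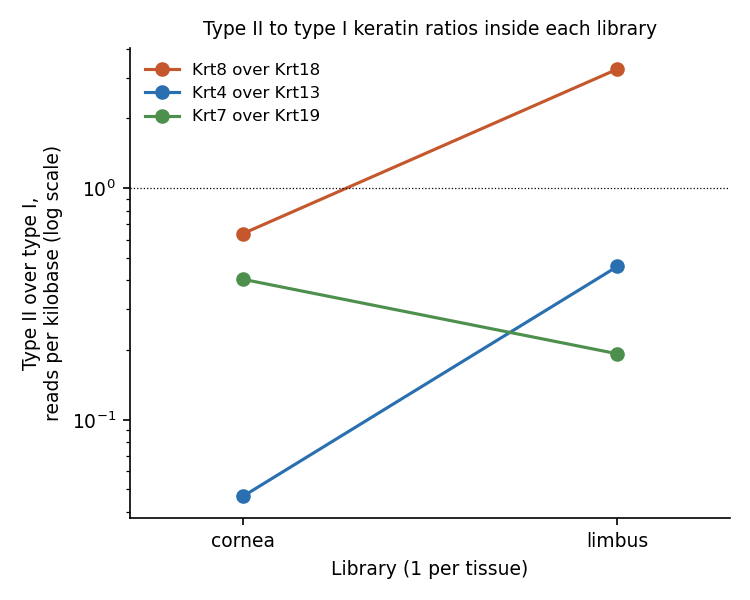
Ratio of the type II to the type I gene within each library, in reads per kilobase on a log axis, for Krt8 over Krt18, Krt4 over Krt13 and Krt7 over Krt19; the dotted line marks equal levels. The lines of Krt8 over Krt18 (0.636 to 3.27) and Krt4 over Krt13 (0.0466 to 0.459) run upwards from cornea to limbus, and that of Krt7 over Krt19 (0.405 to 0.193) runs downwards. The height of the Krt7 over Krt19 line depends on the Krt7 transcript taken, and its direction does not.

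The 7 genes together made up 41407 of 2047460 keratin reads in the cornea, or 2.02% (95% CI 2.003 to 2.04, Clopper-Pearson), and 240934 of 1545820 in the limbus, or 15.6% (95% CI 15.5 to 15.6). Keratin genes as a whole took like shares of the reads on named genes, 7.84% for the cornea and 7.30% for the limbus. Krt13 alone made up 85.8% of the reads of the 7 genes in the cornea and 50.1% in the limbus. The share of Krt4 among them was 5.16% and 29.7%, that of Krt19 3.42% and 12.8%, and that of Krt7 3.596% and 6.39%. Without Krt13, the other 6 genes held 0.286% (95% CI 0.279 to 0.294) of keratin reads in the cornea and 7.78% (95% CI 7.73 to 7.82) in the limbus.

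The largest shares of keratin reads, which are not corrected for transcript length, belonged to other genes. Krt12, the keratin of corneal epithelium, held 55.6% of them in the cornea against 15.1% in the limbus, and its partner Krt5 held 29.99% and 28.1%. Krt15, a keratin of basal cells, held 1.84% and 22.9%. Krt13 held 1.74% and 7.81%, and Krt4 held 0.104% and 4.63%.

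The table holds 52 keratin genes in all. Of the 45 outside the 7, reads were found for 37, and 20 had over 3 reads in each library. Beyond counting error, 11 of these 20 had the higher level in the limbus and 4 in the cornea, and the interval of 5 included 0 (12 and 3 on each side with scaling to total reads). At least 4-fold higher in the limbus were 7 of these 20. The median log2 ratio of the 20 was 0.24.

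Krt17, a keratin of skin appendages and of stressed epithelium, stood above all of the 7, with 72 corneal and 11514 limbal reads and its log2 ratio at 7.42 (95% CI 7.08 to 7.77). Krt15 came next among the other keratins at 3.32 (95% CI 3.31 to 3.34). At the other end, Krt12 was lower in the limbus at -2.19 (95% CI -2.20 to -2.18). Krt74, with 28 corneal and 12 limbal reads, followed at -1.13 (95% CI -2.24 to -0.10). Krt78 and Krt5 were lower in the limbus by less, Krt5 at -0.41 (95% CI -0.41 to -0.40). Krt33a, a hair keratin with 9 corneal and 2 limbal reads, had too few reads for a ratio to be given.

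By the log2 ratio, the keratin outside the 7 that was nearest to Krt7 was Krt15, lower by 0.14, and Krt15 was also the nearest to Krt19, Krt8 and Krt4, at a distance of 1.21 or more. Nearest to Krt18 was Krt75, a keratin of the hair follicle, with a log2 ratio of 2.58. Nearest to Krt13 was the hair keratin Krt32 at 2.07, which rested on 13 and 51 reads, and nearest to Krt23 was the epidermal keratin Krt1 at 0.63. This likeness is over the 2 libraries only.

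**Figure D4:**
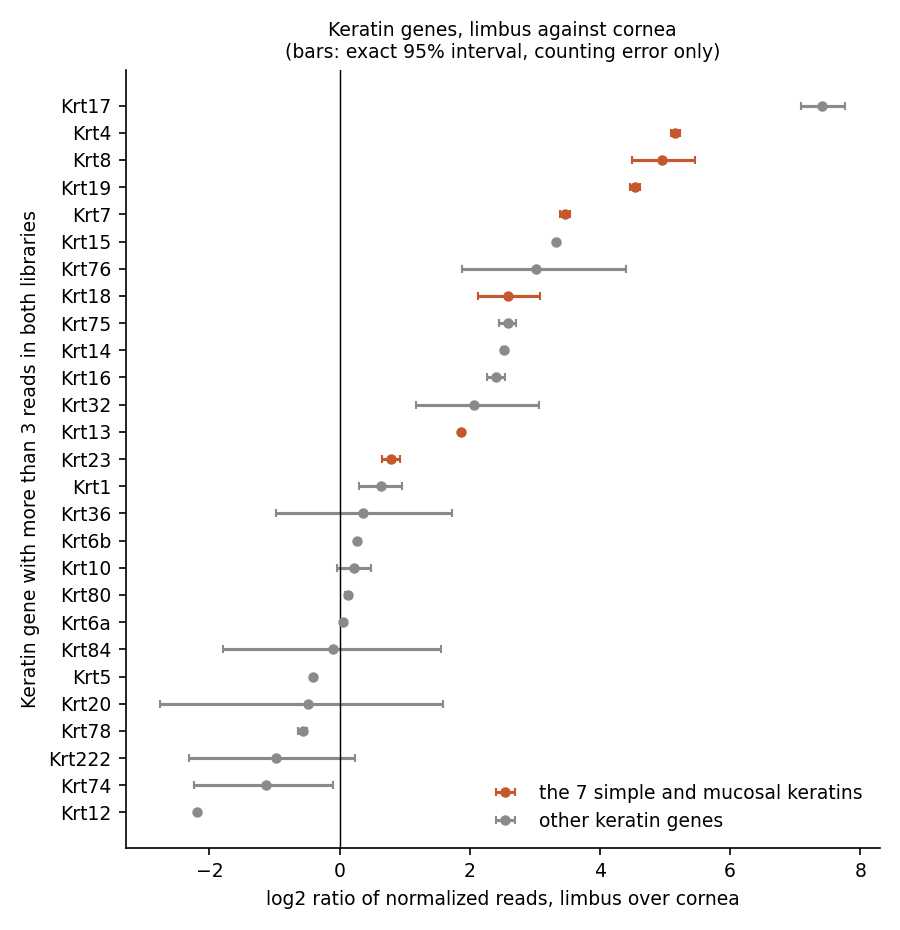
Log2 ratio of normalized reads, limbus over cornea, for the 27 keratin genes that had over 3 reads in each library, with exact 95% intervals that cover counting error only; the 7 simple and mucosal keratins are in orange. Krt4, Krt8 and Krt19 lie below only Krt17 (7.42), Krt13 and Krt23 lie among the other keratins, and Krt12 (-2.19) is at the bottom.

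Keratin genes stand in 2 clusters, 27 annotated protein-coding genes on chromosome 11 and 26 on chromosome 15. On chromosome 11, Krt13, Krt15 and Krt19 are consecutive keratin genes, with 10192 bases between Krt13 and Krt15 and 4882 between Krt15 and Krt19, and their log2 ratios were 1.86, 3.32 and 4.53. The next keratin gene after Krt19 is Krt9, with 0 corneal and 1 limbal reads, and the gene before Krt13 is Krt36, with 10 and 12 reads. Krt23 stands apart from them, between Krt20 with 6 and 4 reads and Krt39, which is listed at 0.

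On chromosome 15, Krt4 lies between Krt76, a type II keratin of the palate, with 7 corneal and 53 limbal reads, and Krt79, with 0 and 13 reads. Krt78, which comes between Krt79 and Krt8, was higher in the cornea, with 4619 corneal and 2912 limbal reads, at a log2 ratio of -0.57 (95% CI -0.64 to -0.50). Krt8 and Krt18 are the last genes of the cluster, 23698 bases apart on opposite strands. Krt7 is at the other end, beside Krt80, whose log2 ratio was 0.12 (95% CI 0.09 to 0.16).

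**Figure D5:**
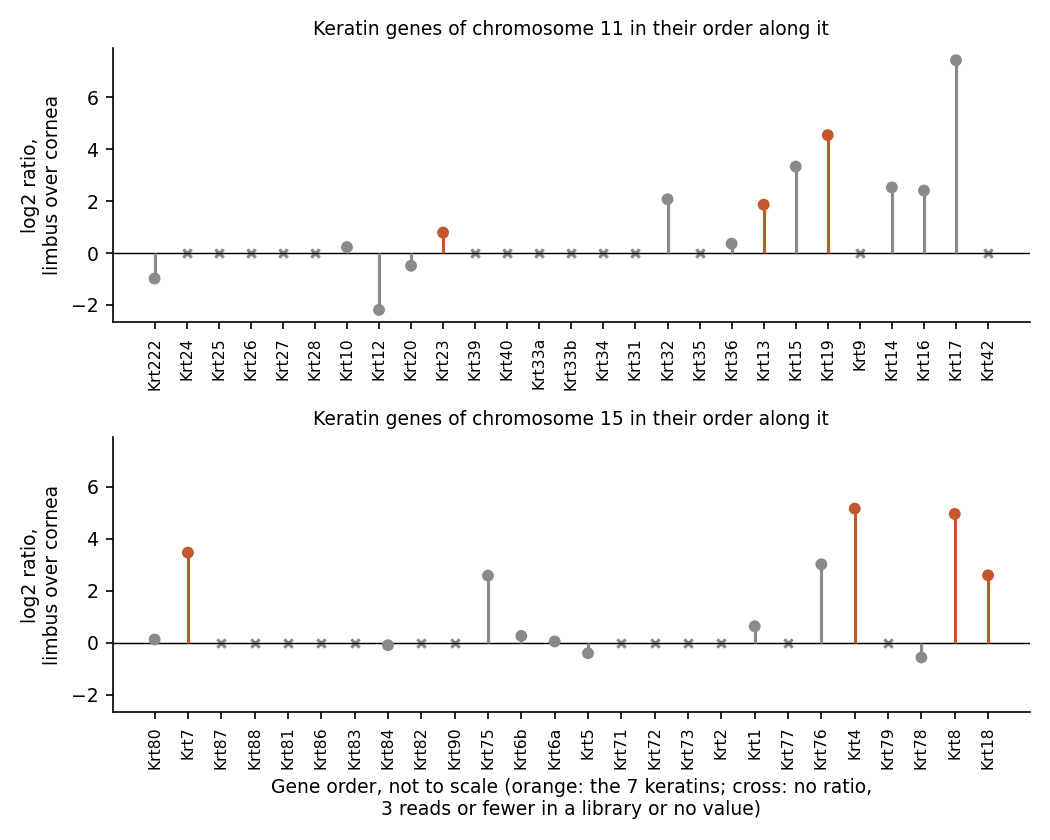
Log2 ratio of normalized reads, limbus over cornea, of the keratin genes of chromosome 11 (top) and chromosome 15 (bottom) in their order along the chromosome, not to scale; the 7 keratins are in orange and a cross marks a gene without a ratio. Krt13, Krt15 and Krt19 stand side by side at 1.86, 3.32 and 4.53, and Krt78 at -0.57 lies between Krt4 and Krt8.

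Proteins that tie keratin filaments to junctions or organize them were taken as a list of 8 genes. Beyond counting error, 3 of them had the higher level in the limbus and 4 in the cornea, and 1 interval included 0, whereas scaling to total reads put 5 on the limbal and 1 on the corneal side. They had a median log2 ratio of -0.07 beside -0.05 for all genes. Plec, which encodes the linker plectin, was the highest at 0.54 (95% CI 0.50 to 0.57), followed by Eppk1, encoding epiplakin, at 0.23. Dsp, which encodes desmoplakin, the anchor of keratins in desmosomes, was the lowest at -0.82 (95% CI -0.84 to -0.81), followed by Tchp, encoding the keratin-binding trichoplein, at -0.43. Ppl, encoding periplakin, had the most reads after Dsp with a log2 ratio of -0.18, which scaling to total reads turns to just above 0.

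Of 9 transcription factors of epithelial differentiation, 4 lay on the limbal and 4 on the corneal side beyond counting error, and the interval of 1 included 0 (5 and 3 with scaling to total reads). Ovol1 at 0.51 (95% CI 0.41 to 0.61) and Elf3 at 0.49 (95% CI 0.46 to 0.52) were the highest. Klf4 at -1.27 (95% CI -1.31 to -1.24) and Ehf at -0.79 (95% CI -0.82 to -0.75) were the lowest. In both lists the highest ratio was below 0.79, the lowest of the 7 keratins.

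Marker genes of the epithelium and of other tissues were counted in the same libraries. The summed normalized reads of 8 genes shared by epithelia were close, 48347 for the cornea and 50751 for the limbus, with log2 ratios from -0.51 to 0.47, and the log2 ratio of the summed reads of the 7 keratins was 2.57 above that of these genes. All 5 markers of corneal epithelium were higher in the cornea, and 4 of 7 markers of limbal progenitors, among them Gpha2 at 4.10, were higher in the limbus, whereas Trp63 and Abcg2 were higher in the cornea and Abcb5 was listed at 0. Markers of muscle, vessels and pigment cells moved with the limbus. All 5 markers of skeletal muscle (summed normalized reads 77.4 for the cornea and 9975 for the limbus), 4 of 5 markers of blood vessels (224 and 2648) and 6 of 7 markers of pigment cells (349 and 1736) were higher there. Cdh5, the remaining vessel marker, had 3 and 421 reads. For corneal endothelium (8283 and 11037), 3 of 5 markers were higher in the limbus, while Alcam, which had the most reads, was higher in the cornea at -0.27 (95% CI -0.33 to -0.22).

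Goblet cells of the conjunctiva hold keratins of the simple kind. Of 8 goblet cell markers, Muc5ac, the gel-forming mucin that defines these cells, had 1 read in either library, Tff1 was listed at 0, and Gcnt3 and Foxa3 had at most 2 reads in a library. Agr2 had 46 corneal and 618 limbal reads, Clca1 had 6 and 25, and Fcgbp had 1483 and 912. Among the 4 markers with enough reads in each library, Agr2 and Clca1 were thus higher in the limbus beyond counting error and Fcgbp in the cornea. The interval of the remaining marker, Spdef with 18 and 25 reads, included 0. The summed normalized reads of the list were 1505 for the cornea and 1636 for the limbus. Without Fcgbp, the marker with the most reads, they were 70.6 and 694, a sum taken after the values were seen. Agr2 alone made up 44.5 and 639 of these. Of 7 sebaceous markers, 3 had over 3 reads in each library, and none of these was higher in either tissue beyond counting error. Awat1 was listed at 0. Pparg had 2 corneal and 13 limbal reads. With its corneal reads set to 3, the interval of its log2 ratio was 0.35 to 4.66, above 0. Scd3 went the other way with 4 and 0 reads, and its interval included 0. The summed normalized reads of the sebaceous list were 133.5 for the cornea and 139.6 for the limbus. Soat1 alone made up 115.1 and 104.4 of these. The part of muscle, vessel, pigment and other tissue in the ratios of the 7 keratins was not tested, nor was that of conjunctival epithelium, of which Krt4, Krt13 and Krt19 are themselves markers.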

How the data were processed

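Total RNA of pooled corneal buttons and limbal rims was sequenced as stranded libraries with paired-end reads. Per the study's methods, the authors used CLC Genomics Workbench 20 to trim adaptors, to map reads (GRCm38, also called mm10) and to normalize by TMM. Their deposited table lists per gene the normalized signal as a mean over the libraries, then a log2 fold change, its standard error, p-values and a status. The deposited log2 fold changes and standard errors, the other measure used, served only to choose which whole reads give the mean, and neither they nor the p-values are printed. Of 40904 rows, 17484 without a gene name were left out. The column of accession numbers did not match the gene names and was not used.

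The deposited means of all 17442 named genes above 0 could be written as whole reads of 1 cornea and 1 limbus library (109 cornea reads worth 102 limbus reads, largest distance from a whole number 0.0101). The mean alone allowed several pairs for 11299 genes, and the pair was taken whose predicted fold change and standard error met the deposited ones (within 0.01, largest miss 0.000685). Where several pairs were within that tolerance (44 genes, among them Krt4, Krt13 and Krt19), the pair was taken whose standard error, given the deposited fold change, was closest. For these 3 keratins it was met to within 1.51e-06 or better, and the next pair missed it by 0.000408 or more. On data simulated with the same fitted model, 17049 of 17049 genes had their reads found exactly. This checks the search for pairs and not whether the model fits the deposited values. The numbers are thus derived reads and not a deposited count table. The design named this form of analysis for a table without values per sample. Size factors, as implied by the deposited means, were 1.03 for the cornea and 0.967 for the limbus. They are not those of TMM, which was tried as an alternative. A library with 3 reads or fewer, the limit that a count of 0 allows, was set to 3.

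The members and lists were chosen with earlier results of these data known. By the rule for naming genes, the 7 members are named, and from each other list the 2 highest, the 2 lowest (more than 10 reads together) and the 2 with the most reads, and the keratin nearest to each member. Marker lists are given mainly by counts and sums, and keratins beside a member, other large keratins and defining markers were named in addition. Positions are from the GENCODE annotation of GRCm38. Alternatives were other scalings, a pseudocount of 1 and filters on means of 10 and 50. Python 3.11.15, numpy 2.4.6, scipy 1.17.1, pandas 2.3.3 and matplotlib 3.10.9 were used.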

Additional observations from a re-analysis of the deposited data

How the results depend on the processing

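Of the 7 keratins, all 7 had the higher level in the limbus beyond counting error and 0 in the cornea. These counts were the same under every scaling and filter tried. They could not have changed, since each other scaling moved the ratios towards the limbus. The filters removed none of the 7, whose lowest mean was 153 (Krt18). Scaling to total reads shifted every log2 ratio by 0.21 and gave 5.37 for Krt4, 4.74 for Krt19, 3.67 for Krt7 and for the median of the 7, 2.07 for Krt13 and 0.99 for Krt23. For Krt13, whose interval is narrow, the trimmed mean of M-values gave 1.88 and median centring 1.90. Under all other alternatives the values moved by less than their counting interval, and no direction turned. The changes of the partner ratios were the same per read and per kilobase. They could not have differed, since transcript length cancels in a change between libraries. No paired analysis was possible because the table holds no values for the numbered samples, and for the same reason no replicate could be left out. Depth limits Krt8 and Krt18 most, with 39 and 45 reads in the cornea. The counts of the other lists under each scaling were added after seeing the data.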
